A study of Homo sapiens with 4 samples.

Results

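The 49 genes described here encode the machinery that copies DNA in S phase, from the proteins that mark replication origins to the enzymes that make the DNA precursors. They were chosen by symbol from a list of complexes, by a rule that uses no measured value, though with earlier results of these data known, and all 49 were found among the 26726 genes of the deposited table and among the 15104 genes with enough reads to be tested. The cells were HN12, a human head and neck squamous cell carcinoma (HNSCC) line. ATAD3A, which encodes an ATPase of the mitochondrial inner membrane, was knocked out by CRISPR/Cas9 with a single guide RNA directed to exon 6 (KO, n = 2 libraries), and the unedited parental HN12 cells served as wild type (WT, n = 2 libraries). KO lines were grown from single cells. Whether the 2 KO libraries stem from 1 clone is not stated in the sources used here, so their values may describe a single clone. The libraries of each group came from duplicate cultures kept separately, in medium with fetal bovine serum that the labels give as DMEM and the study's methods as DMEM/F12.

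DNA replication begins when the origin recognition complex, with CDC6 and CDT1, loads the ring-shaped MCM2-7 helicase onto DNA, a step called licensing that geminin blocks once S phase has begun. CDC45 and the GINS complex then join MCM2-7 to make the active CMG helicase, after phosphorylation by the CDC7-DBF4 kinase. Polymerase alpha and primase lay down primers, polymerases epsilon and delta extend the leading and the lagging strand while held by the sliding clamp PCNA, and FEN1 and LIG1 join the lagging strand pieces. Many of these genes are transcribed as cells enter S phase, under E2F transcription factors, so their level in a culture depends on how many cells are cycling. In RNA from whole cultures, a change in the share of cells in S phase and a change in RNA per cell cannot be told apart.

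Between 13569971 and 18943547 reads were counted per library, and the coefficient of biological variation between libraries of 1 group was 5.88%. ATAD3A itself stood at 38.1 and 30 CPM (counts scaled to library size, adjusted between libraries by the TMM method) in the KO libraries and at 116.4 and 105.8 CPM in the WT libraries, a log2 fold change of -1.70 (SE 0.0907, edgeR adjusted p = 1.58e-17). All 8 squamous epithelial markers were tested and present, 4 of them higher and 4 lower in KO, from KRT5 (log2 2.63, at 2440.2 to 2467.7 CPM in KO and 390.9 to 402.5 CPM in WT cells) to DSG3 (log2 -1.12), while the summed markers of fibroblasts (12 to 16.8 CPM), leukocytes (4.99 to 8.56 CPM) and endothelium (1.52 to 2.39 CPM) stayed low in all 4 libraries. The difference between KO and WT ran through much of the transcriptome. Of all genes tested, 39.5% passed an adjusted p of 0.05 in edgeR's quasi-likelihood test, 20.4% as higher and 19.1% as lower in KO.

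Beside that background the replication genes changed by small amounts, and more of them fell than rose. Of the 49 genes, 6 rose (MCM4, POLD1, POLD2, POLE, FEN1 and LIG1), 15 fell (ORC3, CDC6, GMNN, MCM2, MCM5, CDC45, PRIM1, PRIM2, POLD3, RFC1, RFC4, RFC5, RRM1, RRM2 and TYMS) and 28 did not pass the test, so that 42.9% were called against the 39.5% of all genes. All 49 were well covered, with 251 to 20545 counts in a library, and among the 7772 genes at or above the mean level of the lowest member 54.7% were called, 28.3% as higher and 26.4% as lower. Genes that rose made up 28.6% of the called members with TMM scaling, 12.5% when libraries were scaled by their totals and 9.52% when limma was fitted to the deposited RPKM values. The median log2 fold change of the 49 genes was -0.079, beside -0.0042 for all genes tested. None changed past 2-fold, where 6.14% of all genes and 1.83% of genes at the members' level did, and 4 (RRM1, RFC5, PRIM2 and TYMS) changed past 1.5-fold, all downward. For the 28 genes that did not pass, the 95% intervals of the log2 fold change ran from -0.59 to 0.36 at their outermost. As folds these bounds are 1.5 lower and 1.29 higher. Each interval holds for its own gene in this fit and sets no limit for other fits. CDT1, with an interval of -0.19 to 0.13, was at -0.31 after GC and length correction.

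**Figure D1:**
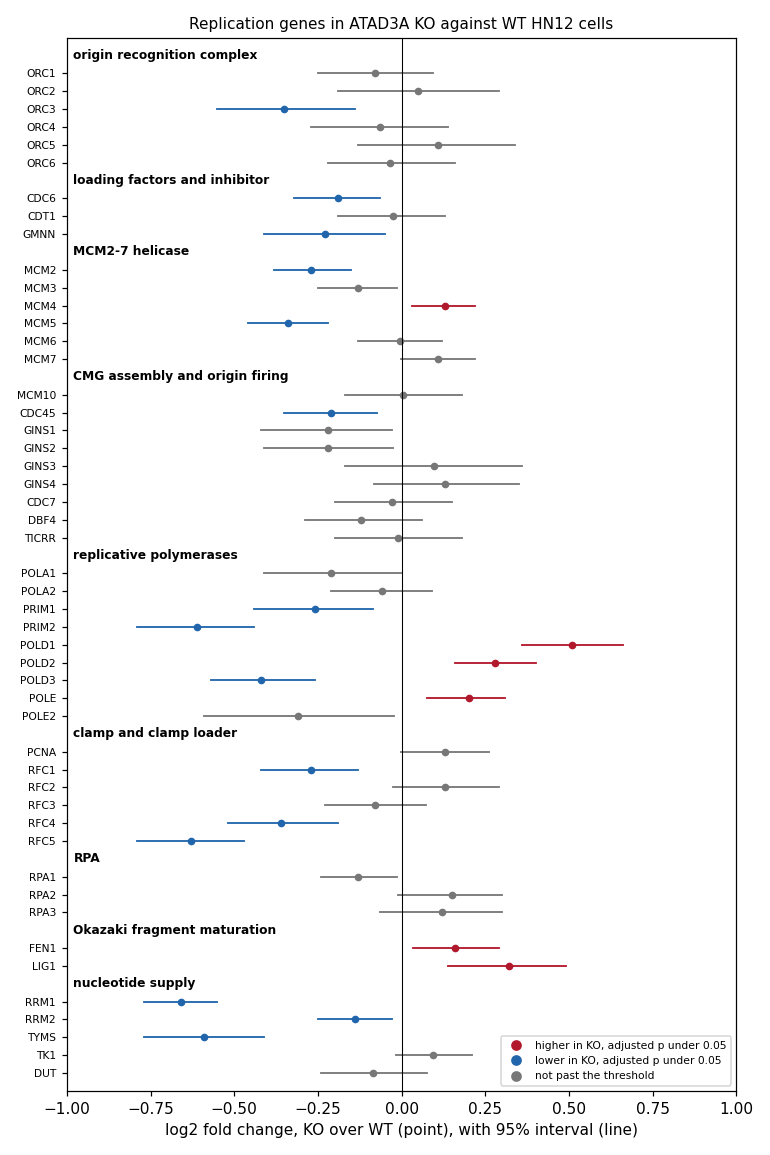
Log2 fold change of each of the 49 genes in KO against WT cells (points) with its 95% interval (lines), grouped by complex. The values run from -0.66 for RRM1 to 0.51 for POLD1, and genes past the threshold in opposite directions occur within the MCM2-7 helicase and the polymerases.

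For 23 of the 49 genes both KO libraries lay below both WT libraries, for 13 they lay above, and for the other 13 the groups overlapped. Over all genes tested, 34.0% lay below and 34.1% above in this way, and over the genes at or above the lowest member level 38.2% lay below and 39.8% above. Test and overlap use the same libraries, so a lack of overlap adds no separate support to a call. Summed over the 49 genes, the level was 6136.4 and 6032.8 CPM in KO and 6333.0 and 6301.6 CPM in WT cells.

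Many promoters of these genes share a sequence feature that the choice of members did not use. RefSeq promoter sequences (GRCh38.p14, 250 bases before to 50 after a transcription start) were matched for 43 of the 49 genes; MCM4, MCM5, GINS4, POLD3, RPA2 and RPA3 had no entry used here. The letters TTTCCCGC, TTTGGCGC, TTTCGCGC or TTTGCCGC, which are forms of the E2F binding motif, were searched on both strands, and matches may overlap where a site reads as a palindrome. They stood in the promoters of 21 of the 43 genes (48.8%), beside 3.99% of the 27305 genes in the table. The match did not separate the directions: it was found in 2 of 5 genes that rose, 5 of 13 that fell and 14 of 25 that did not pass the test. The letters CCAAT were found in 25 of the 43 (58.1%, beside 39.7% of all genes), and TTTGAA, the core of the CHR element of mitotic genes, in 3 (6.98%, beside 18.2%). A match is a description of these letters and not a measurement of binding.

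The 30 bases round the match nearest the start are given for all 7 called genes that have one. As examples, they are also given for 2 of the 14 genes that have one and did not pass. They are written 5′ to 3′ on the strand of the gene, with the E2F letters in capitals. On GRCh38.p14 they lie at chr12:132687342-132687371 for POLE and chr19:48170440-48170469 for LIG1, both on the minus strand. The genes that fell have theirs on the plus strand, at chr6:87590112-87590141 for ORC3, chr17:40287875-40287904 for CDC6, chr6:24775322-24775351 for GMNN, chr3:127598404-127598433 for MCM2 and chr18:657603-657632 for TYMS. Those of MCM6 (chr2:135876513-135876542) and PCNA (chr20:5126663-5126692) are on the minus strand. In MCM2 and MCM6 the capitals cover 2 overlapping matches, 1 on each strand. Only the letters searched for are in capitals, so their likeness between genes follows from the search.
POLE: tgggtgggagcGCGCCAAAtttctcccctg
LIG1: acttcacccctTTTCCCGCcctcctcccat
ORC3: cgcgagggcgcGCGGGAAAtcccgagtgca
CDC6: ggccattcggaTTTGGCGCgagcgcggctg
GMNN: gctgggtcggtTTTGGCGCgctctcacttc
MCM2: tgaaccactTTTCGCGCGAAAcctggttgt
TYMS: gcgggacggccGCGGGAAAaggcgcgcgga
MCM6: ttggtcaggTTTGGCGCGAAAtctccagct
PCNA: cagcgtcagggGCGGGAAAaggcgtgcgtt
The same letters, TTTGGCGC, thus stand in CDC6 and GMNN, which fell, and on the other strand in POLE, which rose.

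Among the licensing factors, 3 of 9 genes passed the test and all 3 fell. The 6 subunits of the origin recognition complex (ORC), which marks the origin and helps to load the helicase, were close to WT but for ORC3. ORC3 stood at 33.1 and 31.7 CPM in KO and 42.9 and 39.4 CPM in WT cells, so that the groups did not overlap, and fell by 0.35 on the log2 scale (SE 0.101, edgeR adjusted p = 0.00565). ORC1 (-0.079), ORC2 (0.05), ORC4 (-0.065), ORC5 (0.11) and ORC6 (-0.034) did not pass, and the 95% interval of the largest of these, ORC5, ran from -0.13 to 0.34.

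CDC6, the ATPase that works with ORC to load MCM2-7, stood at 140.2 and 151.2 CPM in KO against 164.3 and 168.3 CPM in WT cells and fell by 0.19 (SE 0.0624, edgeR adjusted p = 0.0133). GMNN, which encodes geminin, the inhibitor of CDT1, stood at 48.9 and 47.9 CPM against 59.7 and 53.7 CPM and fell by 0.23 (SE 0.0887, edgeR adjusted p = 0.0376). Both genes were lower in both KO libraries than in either WT library. CDT1, the loading factor that geminin holds back, stood at 79.3 and 72.0 CPM in KO and 80.7 and 73.4 CPM in WT cells, with a log2 fold change of -0.027 whose interval ran from -0.19 to 0.13. None of the 3 passed without WT replicate 1, at -0.27 for ORC3, -0.20 for CDC6 and -0.14 for GMNN. CDC6 was also lost without KO replicate 1 (-0.14) and WT replicate 2 (-0.17), and GMNN without KO replicate 1 (-0.24), KO replicate 2 (-0.22) or the count filter (-0.22), and in DESeq2 (-0.23).

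The 6 subunits of the MCM2-7 ring, which is built in equal parts and unwinds the DNA, moved in different directions. MCM5 stood at 173.1 and 174.6 CPM in KO and 230.1 and 210.4 CPM in WT cells and fell by 0.34 (SE 0.0601, edgeR adjusted p = 1.61e-05). MCM2 stood at 228.5 and 218.6 CPM against 265.6 and 272.5 CPM and fell by 0.27 (SE 0.0562, edgeR adjusted p = 0.000207). Neither gene overlapped between the groups, and both passed in every alternative fit. MCM4, by far the most abundant subunit, stood at 1114.4 and 1120.6 CPM in KO and 1032.0 and 1014.1 CPM in WT cells and rose by 0.13 (SE 0.0472, edgeR adjusted p = 0.0298). The rise of MCM4 was 1.09-fold and was called in 7 of 14 alternative fits: it was 0.057 with libraries scaled by their totals and 0.058 with limma on RPKM, and it was not called without KO replicate 2 (0.12), WT replicate 1 (0.15) or WT replicate 2 (0.11). MCM3 (-0.13), MCM6 (-0.0062) and MCM7 (0.11) did not pass, though MCM3 passed as lower in 5 of 14 alternative fits and MCM7 as higher without KO replicate 2 (0.17).

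Per length of gene, the ring subunits were far from equal in level. In WT cells MCM4 stood at 250.1 ± 2.34 RPKM (reads scaled to gene length and library size, SD, n = 2) and MCM7 at 115.1 ± 2.88, followed by MCM2 (76.0 ± 1.61) and MCM3 (75.9 ± 1.27), which did not differ beyond their spread, then MCM5 (49 ± 2.95) and MCM6 (37.4 ± 1.15). In KO cells MCM5 (36.8 ± 0.303 RPKM) was down to about the level of MCM6 (35.5 ± 0.737 RPKM). These ranks rest on the gene lengths behind the RPKM, 4599 nt for MCM5 and 3736 nt for MCM6. The SD holds no error in length. The ratio of MCM4 to MCM5 was 7.08 and 7.06 in the KO libraries and 4.93 and 5.30 in the WT libraries.

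**Figure D2:**
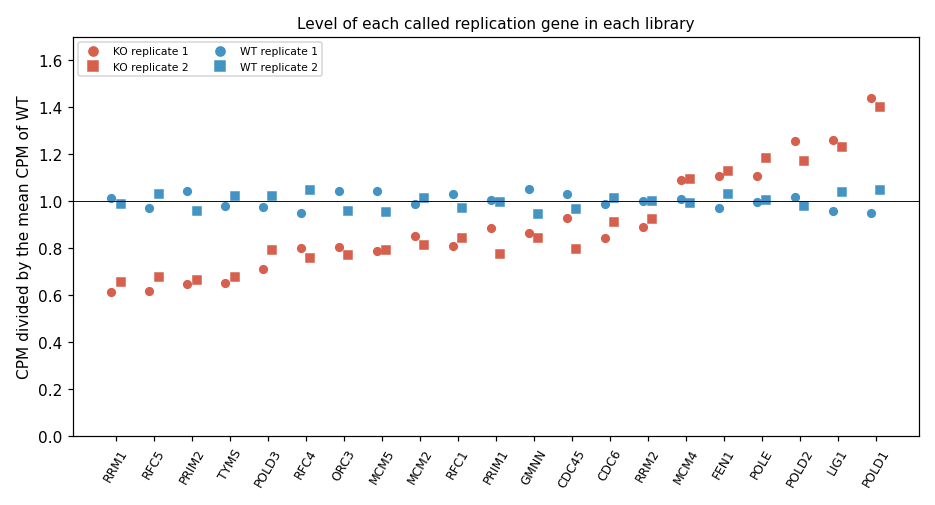
Level of each of the 21 called genes in each library, as CPM divided by the mean CPM of the 2 WT libraries, in the order of their log2 fold change. KO libraries (red) and WT libraries (blue) do not overlap for any of them, from RRM1 at the left to POLD1 at the right. These genes were picked by the test on the same libraries, so the lack of overlap adds no support to the calls.

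Of the 9 genes that turn the loaded ring into an active helicase, only CDC45 passed the test. CDC45, which joins MCM2-7 and GINS in the CMG helicase, stood at 137.8 and 117.8 CPM in KO and 153.0 and 143.6 CPM in WT cells and fell by 0.21 (SE 0.0688, edgeR adjusted p = 0.0123). The fall was -0.11 without KO replicate 2 and -0.16 without WT replicate 1, and passed in neither case. The 4 GINS subunits form 1 complex, and their log2 fold changes were -0.22 for GINS1, -0.22 for GINS2, 0.096 for GINS3 and 0.13 for GINS4. GINS1 (44.5 and 38.5 against 47.3 and 49.6 CPM) and GINS2 (46.7 and 41.1 against 48.4 and 53.8 CPM) were lower in both KO libraries but missed the threshold, at edgeR adjusted p = 0.0636 and 0.0655. Both passed without KO replicate 1, at -0.33 and -0.31, and with library totals, at -0.29 each. MCM10 (0.0052), which helps to activate the helicase, the kinase CDC7 (-0.028), its activator DBF4 (-0.12) and TICRR (-0.012), which brings a firing factor to the origin, did not pass.

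The replicative polymerases held the widest spread of the 9 groups of members, with 3 genes that rose, 3 that fell and 3 that did not pass. POLD1 (ENSG00000062822, chr19:50384204-50418016 on GRCh38, plus strand), the catalytic subunit of polymerase delta, stood at 105.9 and 103.0 CPM in KO and 69.9 and 77.2 CPM in WT cells and rose 1.42-fold (log2 0.51, SE 0.0737, edgeR adjusted p = 6.81e-07). POLD2, the second subunit of the same enzyme, stood at 240.3 and 224.2 CPM against 195.1 and 187.6 CPM and rose by 0.28 (SE 0.0589, edgeR adjusted p = 0.000203). POLD3, the subunit that ties polymerase delta to PCNA, went the other way, at 62.7 and 69.9 CPM in KO and 86.3 and 90.5 CPM in WT cells (log2 -0.42, SE 0.0781, edgeR adjusted p = 4.46e-05). In this fit the subunits of this single enzyme thus changed in opposite directions, each without overlap between the groups. When GC content and length were fitted and removed, POLD1 stood at 0.23 and POLD3 at -0.28, and both kept their calls. POLD2 stood at 0.055 and was no longer called. The ratio of POLD1 to POLD3 in RPKM was 1.86 and 1.62 in KO and 0.892 and 0.938 in WT libraries, the largest shift among 9 ratios of partner genes that were chosen after their values were seen. With 2 libraries a group, an exact permutation test of such a ratio cannot give a p below 0.333, so none is given.

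PRIM2 (ENSG00000146143, chr6:57314805-57646849 on GRCh38, plus strand), the large subunit of primase, stood at 43.9 and 44.9 CPM in KO and 70.7 and 64.9 CPM in WT cells and fell 1.53-fold (log2 -0.61, SE 0.0865, edgeR adjusted p = 4.21e-07). Its partner PRIM1, which makes the RNA primer, stood at 53.2 and 46.6 CPM against 60.2 and 59.8 CPM and fell by 0.26 (SE 0.0883, edgeR adjusted p = 0.0159). Both primase subunits were therefore lower in both KO libraries, and the ratio of PRIM1 to PRIM2 in RPKM was 1.99 and 1.71 in KO and 1.40 and 1.51 in WT libraries. The call of PRIM1 was lost without KO replicate 2 (-0.17), WT replicate 1 (-0.25) or WT replicate 2 (-0.27), and in DESeq2 (-0.27). POLA1, the catalytic subunit of polymerase alpha (33.6 and 32.3 against 37.6 and 38.5 CPM, log2 -0.21), and POLA2 (-0.058) did not pass, but POLA1 passed with library totals (-0.28).

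POLE, the catalytic subunit of polymerase epsilon, stood at 212.2 and 227.6 CPM in KO and 191.5 and 192.5 CPM in WT cells and rose by 0.20 (SE 0.0588, edgeR adjusted p = 0.00729). POLE2, its second subunit, stood at 19.3 and 15.3 CPM against 20 and 22.9 CPM and missed the threshold (log2 -0.31, 95% interval -0.59 to -0.024, edgeR adjusted p = 0.0793). The call of POLE was lost without WT replicate 1 or WT replicate 2 (0.20 in each) and was 0.13 with libraries scaled by their totals and 0.12 with limma on RPKM. POLE2 passed without KO replicate 1 (-0.48) and with library totals (-0.38).

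**Figure D3:**
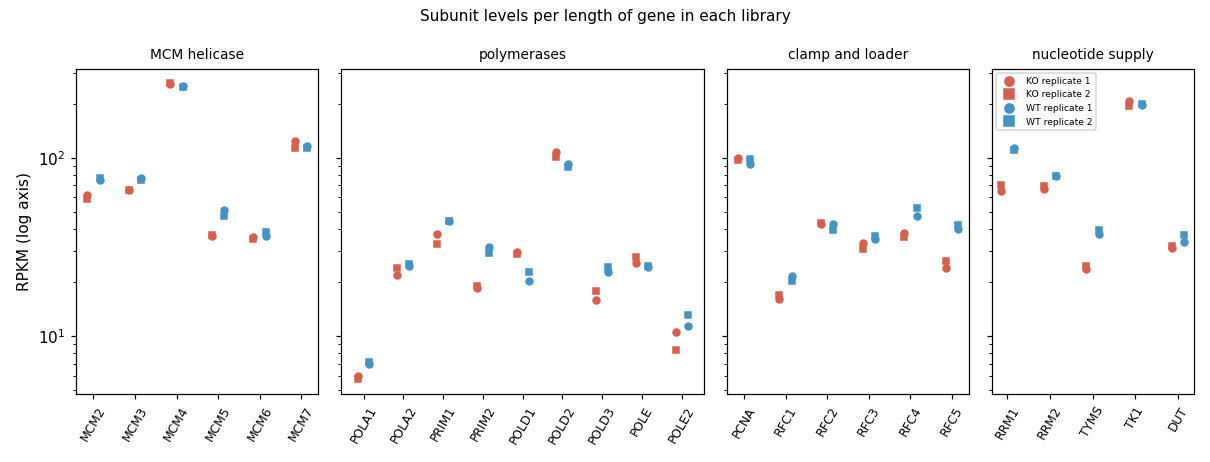
Deposited RPKM (log axis) of each subunit of the MCM helicase, the polymerases, the clamp and its loader, and the nucleotide supply enzymes in each library. KO (red) lies above WT (blue) for POLD1 and POLD2 and below it for POLD3 and PRIM2, and RRM1 drops from above RRM2 to about its level.

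Of the sliding clamp and the clamp loader, the clamp did not pass and 3 of 5 loader subunits fell. PCNA, the ring that holds the polymerases on DNA, stood at 140.2 and 136.1 CPM in KO and 123.1 and 130.0 CPM in WT cells (log2 0.13, 95% interval -0.0021 to 0.26, edgeR adjusted p = 0.114). RFC5 (ENSG00000111445, chr12:118013588-118033130 on GRCh38, plus strand), a small subunit of the replication factor C complex that opens PCNA, stood at 60.4 and 66.1 CPM in KO and 95.1 and 100.7 CPM in WT cells and fell 1.55-fold (log2 -0.63, SE 0.0767, edgeR adjusted p = 2.05e-08). RFC4, another small subunit, stood at 56.5 and 53.5 CPM against 67.0 and 73.9 CPM and fell by 0.36 (SE 0.0837, edgeR adjusted p = 0.000763). The large subunit RFC1 stood at 81.6 and 84.9 CPM against 103.8 and 97.6 CPM and fell by 0.27 (SE 0.0717, edgeR adjusted p = 0.00213), a call lost without WT replicate 1 (-0.22). The small subunits RFC2 (0.13) and RFC3 (-0.081) did not pass. RFC2 and RFC5 were level in WT cells, with RPKM ratios of 1.07 and 0.932, and stood at 1.77 and 1.63 in the KO libraries.

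The 3 subunits of RPA, which coats single-stranded DNA, gave no call. RPA1 stood at -0.13 (252.6 and 245.4 against 269.7 and 274.1 CPM, edgeR adjusted p = 0.0676), RPA2 at 0.15 and RPA3 at 0.12. RPA1 passed without KO replicate 1 (-0.15), with library totals (-0.20) and with limma on RPKM (-0.19 and -0.20), and RPA3 passed without KO replicate 2 (0.26).

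The nuclease FEN1 and the ligase LIG1, which trim and seal lagging strand pieces, both rose. LIG1 stood at 62.4 and 60.9 CPM in KO and 47.5 and 51.5 CPM in WT cells, a rise of 0.32 (SE 0.0864, edgeR adjusted p = 0.00318). FEN1 stood at 145.3 and 148.1 CPM against 127.1 and 135.3 CPM, a rise of 0.16 (SE 0.0635, edgeR adjusted p = 0.0405). FEN1 was the least stable of the 21 calls, made in 4 of 14 alternative fits and lost without KO replicate 2 (0.15), WT replicate 1 (0.12) or WT replicate 2 (0.21). LIG1 was lost without WT replicate 1 (0.27) and with limma on RPKM (0.23 and 0.25 at the 2 pseudocounts).

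The supply of DNA precursors held the largest fall of the 49 genes. RRM1 (ENSG00000167325, GENCODE 29 on GRCh38, chr11:4094707-4138876, plus strand), the large subunit of ribonucleotide reductase, which turns ribonucleotides into deoxyribonucleotides, stood at 212.5 and 227.8 CPM in KO and 351.9 and 343.4 CPM in WT cells. Its mean was 220.1 ± 10.9 CPM against 347.6 ± 6.05 CPM (SD, n = 2 each), a 1.58-fold fall (log2 -0.66, SE 0.0562, edgeR adjusted p = 5.31e-12). RRM2, the small subunit, whose level in cycling cells follows S phase, stood at 252.6 and 262.1 CPM against 283.3 and 283.8 CPM and fell by only 0.14 (SE 0.0552, edgeR adjusted p = 0.0415). The call of RRM2 was lost without KO replicate 1 (-0.11), WT replicate 1 (-0.13) or WT replicate 2 (-0.14), in DESeq2 (-0.14) and without the count filter (-0.13). In RPKM, the ratio of RRM2 to RRM1 was 1.02 and 0.992 in KO and 0.694 and 0.712 in WT libraries, so that per length the small subunit stood below the large one in WT cells and at about its level in KO cells.

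The fall of RRM1 stood beside a promoter without the E2F letters in the whole window searched. The 120 bases before its RefSeq start (GRCh38.p14, chr11:4094565-4094684, plus strand) hold a CCAAT box, shown in capitals because it is the nearest of the searched motifs to the start.
RRM1: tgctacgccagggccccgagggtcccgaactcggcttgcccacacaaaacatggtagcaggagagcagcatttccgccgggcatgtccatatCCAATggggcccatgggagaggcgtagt
The box lies 28 to 24 bases before the start. Outside the bases shown, the searched window also holds TTTGAA on the other strand, 199 to 194 bases before the start.

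TYMS, thymidylate synthase, which makes the thymidine nucleotide anew, stood at 40.5 and 42.1 CPM in KO and 60.9 and 63.7 CPM in WT cells and fell 1.51-fold (log2 -0.59, SE 0.0884, edgeR adjusted p = 1.07e-06). TK1, thymidine kinase, which makes the same nucleotide by salvage, stood at 361.4 and 337.5 CPM against 325.8 and 328.6 CPM and did not pass (log2 0.095, 95% interval -0.016 to 0.21), but was 0.14 and passed without KO replicate 2. The ratio of TK1 to TYMS in RPKM was 8.83 and 7.92 in KO and 5.29 and 5.10 in WT libraries. DUT, which removes dUTP and yields the substrate of TYMS, was at -0.084 and did not pass. Summed over these 5 genes, the level was 936.1 and 940.5 CPM in KO and 1092.8 and 1096.9 CPM in WT cells.

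The direction of the changes moved with the base composition of the transcripts and with the chromosome neighbourhood. The 6 genes that rose had a median GC content of 56.0% (48.5 to 65.0%) and the 15 that fell 44.5% (39.4 to 58.1%), beside 48.2% over the genes tested. Across the 49 genes, which share the same 4 libraries, the log2 fold change correlated with GC content at Pearson's r = 0.419 and Spearman's rho = 0.382, and across 14684 genes tested at rho = 0.358. When GC content and length were fitted and removed, the calls of ORC3 (-0.18), POLD2 (0.055), RFC1 (-0.087), FEN1 (0.025) and RRM2 (-0.079) were lost, CDT1 (-0.31), MCM3 (-0.20) and GINS2 (-0.27) passed as lower, and TK1 turned from 0.095 to -0.23 and passed. RRM1 (-0.55), RFC5 (-0.58), PRIM2 (-0.50), TYMS (-0.72), POLD3 (-0.28) and POLD1 (0.23) kept their calls.

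**Figure D4:**
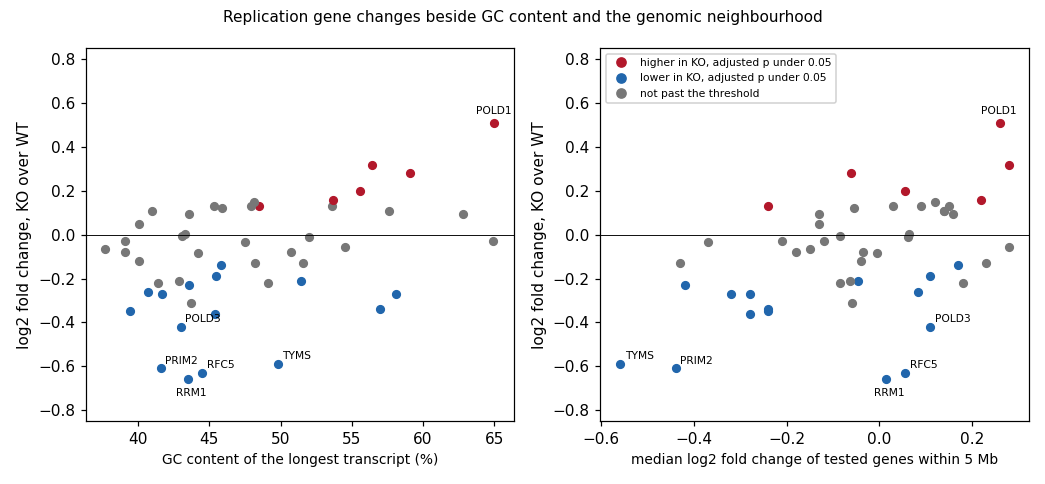
Log2 fold change of the 49 genes against the GC content of the longest transcript (left) and against the median log2 fold change of the tested genes within 5 Mb (right). POLD1 lies at the GC-rich end, TYMS and PRIM2 lie where the neighbouring genes are lower too, and RRM1, RFC5 and POLD3 lie where the neighbours' median is near 0 or above it.

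Several calls lay in stretches of the genome where other genes moved the same way. TYMS lies on chromosome 18 (GENCODE 29, GRCh38, 657604 to 673578, plus strand), where the median log2 fold change of 195 tested genes was -0.76 and that of the 22 within 5 Mb of TYMS was -0.56. TYMS at -0.59 therefore fell about as far as its neighbours. The tested genes within 5 Mb had medians of -0.44 at PRIM2 (21 genes), -0.42 at GMNN (63 genes) and -0.24 at ORC3 (30 genes), all on chromosome 6, and of -0.32 at MCM2 (58 genes) and -0.28 at RFC4 (58 genes) on chromosome 3. On chromosome 19, where POLD1 and LIG1 lie and the median was 0.25 over 986 genes, those medians were 0.26 (209 genes) and 0.28 (213 genes). RRM1 on chromosome 11 (neighbour median 0.015 over 112 genes) and RFC5 on chromosome 12 (0.056 over 80 genes) stood apart from theirs. The neighbour median also had the sign opposite to the change at MCM4 (-0.24), POLD2 (-0.062), POLD3 (0.11), RRM2 (0.17), CDC6 (0.11) and PRIM1 (0.084). It had the same sign as the change at RFC1 (-0.28), MCM5 (-0.24), CDC45 (-0.047), POLE (0.055) and FEN1 (0.22). Across the 49 genes the correlation with the neighbours' median was r = 0.454 and rho = 0.421. The part of GC content and of position in these changes was not tested beyond these values, and copy number was not measured.

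Some reads cannot be placed with certainty. Of the 50-nt stretches of a member's exons, over 10% also occur in another gene for 8 of the 49 members: POLA2 (54.1%), PRIM2 (31.3%), RRM2 (29.6%), PRIM1 (22.2%), ORC6 (19.2%), DBF4 (18.1%), POLD1 (10.9%) and ORC4 (10.3%), so their values are uncertain where counting split or dropped shared reads. A further source is the opposite strand, where 19 members overlap exons of another gene and the strand setting of the counting is not given in the sources used here. TYMS overlaps ENOSF1, which stood at 32.8 and 31.7 CPM in KO and 49.2 and 43.3 CPM in WT cells and fell too (log2 -0.52, SE 0.0998, edgeR adjusted p = 5.7e-05). RRM1 overlaps RRM1-AS1, RFC4 overlaps EIF4A2 and RFC5 overlaps WSB2.

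A wider list of 74 replication genes outside the 49 also held changes in both directions. Of these, 11 rose, 21 fell and 42 did not pass, with a median log2 fold change of -0.11 and no called change past 2-fold. The share called was 43.2%, beside 39.5% over all genes tested and 54.7% over genes at or above the lowest member level. POLE4, a small subunit of polymerase epsilon, stood at 55.7 and 51.2 CPM in KO and 30.4 and 29.6 CPM in WT cells and had the largest rise (log2 0.83, edgeR adjusted p = 8.93e-09). In the same group of 17 further subunits and fork factors, where 2 rose and 5 fell, TOPBP1, a factor for origin firing and checkpoint signalling, fell from 196.2 and 198.8 CPM in WT to 129.9 and 129.7 CPM in KO cells (log2 -0.61, edgeR adjusted p = 2.67e-10). Of polymerase epsilon, POLE and POLE4 thus rose, while POLE3 (0.077) and POLE2 (-0.31) did not pass.

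Among 6 genes of primer removal, 3 rose, led by RNASEH2A (0.47), a subunit of the enzyme that removes RNA from DNA, and 1 fell, the helicase-nuclease DNA2 (-0.76), at 35 and 34.1 CPM in KO against 56.5 and 60.8 CPM in WT cells. Among 9 genes of nucleotide metabolism, 3 rose, led by DTYMK (0.36), the kinase that acts after TYMS and TK1, and 2 fell. The 13 genes of the E2F and RB families held no rise and 6 falls, the largest in TFDP2 (-0.81), a partner of E2F proteins, at 37.4 and 39.4 CPM in KO against 67.9 and 66.8 CPM in WT cells. The other falls of this group were RBL2 (-0.63), RB1 (-0.40), E2F8 (-0.38), E2F3 (-0.32) and RBL1 (-0.31). The tested genes within 5 Mb had medians of -0.28 at TFDP2, -0.13 at RBL2, 0.0016 at RB1, -0.3 at E2F8, -0.38 at E2F3 and 0.064 at RBL1. GC content of these falls ran from 37.3% (RB1) to 46.7% (TFDP2), beside 48.2% over the genes tested. Of the remaining groups, the alternative clamp loaders had CHTF18 (0.36) and RAD17 (-0.31) called of 6. The 9 chromatin factors had 1 rise (UHRF1, 0.27) and 2 falls (ASF1A, -0.68, the furthest). The 7 S phase cyclin and CDK genes had CDKN1A up (0.33) and 2 falls (CDK2, -0.39, the furthest). The 7 checkpoint genes had 2 falls (ATR, -0.35, the furthest) and no rise. Neighbour medians were -0.31 at TOPBP1, -0.35 at DNA2, -0.15 at RAD17, -0.07 at ASF1A, 0.064 at CDK2 and -0.28 at ATR. After GC and length correction, 13 genes of the wider list fell in place of 21. The part of GC content and of position in the changes of the wider list was not tested beyond these values.

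For comparison, 18 genes of G2 and mitosis, which act after replication is done, were called in 88.9% of cases. The share was 39.5% over all genes tested and 54.7% over genes at or above the lowest member level. Of the 18, 14 fell, 2 rose and 2 did not pass, with a median log2 fold change of -0.31. MKI67, a marker of cycling cells, stood at 435.9 and 497.9 CPM in KO and 909.3 and 840.3 CPM in WT cells and fell the furthest (log2 -0.91, edgeR adjusted p = 1.43e-15), while CDC20 had the largest rise (0.24). GC content was 48.3% for MKI67 and 57.9% for CDC20, and the tested genes within 5 Mb had medians of -0.29 and 0.11. These are counts and medians side by side, and the difference between the lists was not tested. The part of GC content and of position in the changes of this list was not tested either.

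**Figure D5:**
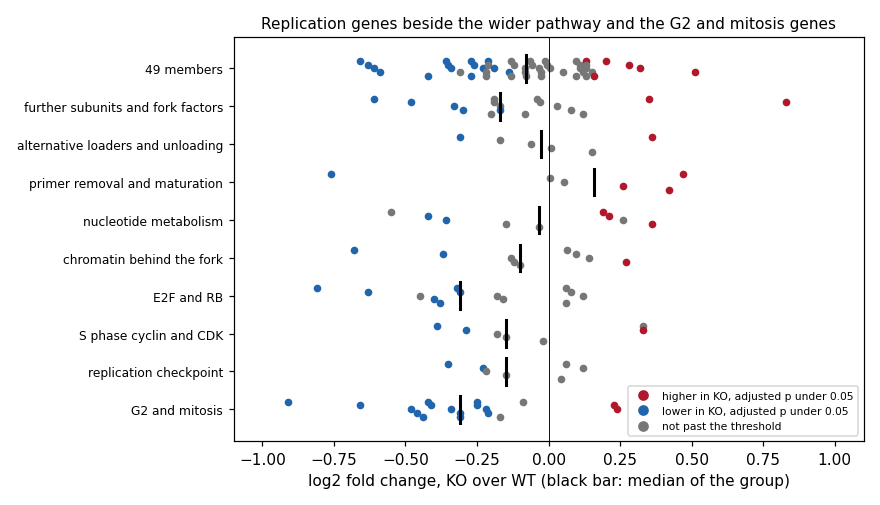
Log2 fold change of each gene of the 49, of the 8 groups of the wider replication list and of the G2 and mitosis list (points), with the median of each group (black bars). The medians are -0.079 for the 49 genes and -0.31 for both the E2F and RB group and the G2 and mitosis genes.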

How the data were processed

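Total RNA of 4 HN12 cultures was made into libraries with the NEBNext Ultra II kit and sequenced in 50-nt reads on an Illumina instrument. The authors deposited whole-number counts per gene and RPKM values made from them, 1 column of each per library; the submitters' processing notes name CASAVA, STAR 2.5, HTSeq, edgeR 3.16.5 and hg19, with no order or role. Annotation version, strand setting and filters are not given in the sources used here. The study's methods name the DESeq package, which was not used; counts were tested with edgeR 4.0.16 in R 4.3.3 (TMM scaling, filterByExpr with a minimum count of 10, quasi-likelihood test, Benjamini-Hochberg adjustment over 15104 genes, threshold 0.05). Intervals are at 95%. CPM compare 1 gene between libraries. The deposited RPKM compare genes, and levels of 1 gene beside another rest on the gene lengths behind them. 3 counts equal 0.163 to 0.216 CPM. Replicates of a group differed by more than sampling noise (chi-square per degree of freedom 4.2 for KO and 3.36 for WT). The p-values measure the spread between duplicate cultures. The members and the other lists were chosen with earlier results of these data known; all 49 members are named, and of the other lists the counts, the median and the called genes furthest up and down in each group, except 1 that is not reported here. GC content came from GENCODE 29 transcripts and was available for 97.2% of the tested genes. Gene length was the one implied by the deposited counts and RPKM. Alternatives were DESeq2 1.42.0, its size factors, library totals, other count filters, a replicate block, limma 3.58.1 on log2(RPKM + 1) and log2(RPKM + 0.1), GC and length correction by splines, and leaving out each library. The edgeR steps were tested on simulated data.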

Additional observations from a re-analysis of the deposited data

How the results depend on the processing

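Of the 21 called genes, POLD1 (higher) and 8 genes (lower: MCM2, MCM5, PRIM2, POLD3, RFC4, RFC5, RRM1 and TYMS) passed in the same direction under all 14 alternatives, and none of the 21 changed sign under any of them. The count of genes that rose, 6, became 3 with library totals and 2 with limma on log2(RPKM + 1) or log2(RPKM + 0.1), and ranged from 2 (without WT replicate 1) to 7 when single libraries were left out; without WT replicate 2 it was 3. The count that fell, 15, became 21 with library totals and 19 with either limma fit or with length correction alone, and ranged from 8 (without WT replicate 1) to 16 when single libraries were left out. Leaving out a library leaves 1 sample in its group, which is then assumed to vary like the other group. The median of the 49 genes, -0.079, became -0.15 with library totals, -0.14 and -0.15 with limma at the 2 pseudocounts, and ranged from -0.12 (without KO replicate 1) to -0.057. In the wider list the 11 rises ranged from 7 (without WT replicate 1) to 10 when single libraries were left out, and the 21 falls became 28 with library totals and 13 after GC and length correction. The median of all genes, -0.0042, was -0.074 with library totals, the furthest from 0 of any alternative. The replicate numbers do not pair the samples (correlation of same-number deviations -0.0571); with the number as a replicate block 4 genes rose and 14 fell, and FEN1 (0.16), MCM4 (0.13) and RRM2 (-0.14) were no longer called. Of the 28 genes that did not pass, 10 were called in at least 1 alternative. Sign changes, 34 of 686 values in 16 genes, were confined to genes that did not pass. With library totals, limma at + 1 and limma at + 0.1, ORC2 became -0.02, -0.017 and -0.02 and MCM10 -0.065, -0.061 and -0.065. Without the count filter MCM6 was 0.0053. After GC and length correction ORC4 was 0.15, MCM6 0.13, MCM7 -0.044, CDC7 0.18, DBF4 0.089, RFC2 -0.046, RFC3 0.081 and TK1 -0.23. After length correction alone, chosen after seeing the data, MCM6 was 0.018, TICRR 0.11, PCNA -0.045, RFC2 -0.0047 and TK1 -0.044. Over the fits without 1 library, ORC4 ranged from -0.19 to 0.049, ORC6 from -0.14 to 0.087, CDT1 from -0.099 to 0.052, MCM6 from -0.03 to 0.022, MCM10 from -0.083 to 0.091, CDC7 from -0.055 to 0.0072, TICRR from -0.057 to 0.034, POLA2 from -0.12 to 0.0054 and RPA3 from -0.036 to 0.26. The cause of these shifts was not tested.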
